A study of Mus musculus with 27 samples.

Results

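Resident alveolar macrophages on day 12 after lipopolysaccharide (LPS) were compared with resident alveolar macrophages of untreated mice, to ask what remained different in these cells at that time. The 6 libraries of the comparison, 3 on day 12 and 3 untreated, are 6 of the 27 of the study, and all genes that passed a count filter were tested, 13599 of the 38124 in the count table. The cells came from C57B/6 mice of 8 to 14 weeks. Day 12 mice had received 20 ng of LPS, a component of the outer membrane of Gram-negative bacteria, in 50 µL into the trachea, and the untreated mice stand for day 0. Cells were washed out of the airways and sorted as CD11c+ CD11b- (resident) or CD11c- CD11b+ (recruited). Each population has 3 libraries a day, on days 3, 6, 9 and 12 for both and on day 0 for resident cells. The labels do not say whether libraries of a group came from separate animals, so the p-values measure the spread between libraries, which may be technical.

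Resident alveolar macrophages live on the air side of the alveolus, where they clear surfactant lipids and inhaled particles. They are seeded around birth and maintain themselves by division with little input from blood monocytes, depend on GM-CSF and on the transcription factor PPARγ, and carry Siglec-F and CD11c. During acute injury, monocytes enter the airspace and become macrophages that begin with a different set of active genes and that can acquire the surface markers of resident cells over time.

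In all, 149 genes rose (1.1% of the genes tested) and 28 fell (0.206%) on day 12 relative to untreated cells in edgeR's quasi-likelihood test at an adjusted p under 0.05. At an unadjusted p under 0.05, 968 were higher and 641 lower, and the median log2 change of all tested genes was 0.02. The log2 change of the raised genes had a median of 1.65, and 101 of them rose more than 2-fold. Many were rare transcripts: 48 averaged under 1 CPM (a gene's counts scaled to its library's total) in untreated cells and 65 under 10 CPM on day 12. Among the lowered genes the median log2 change was -0.97, and 13 fell by more than 2-fold. In every one of the 177 called genes the 3 day 12 libraries lay apart from the 3 untreated libraries, as did those of 21.2% of all genes tested. Leaving out 1 library at a time lowered the counts: 67 genes rose without day 12 replicate 1, and 99, 89 and 72 without untreated replicates 1, 2 and 3, while 8, 10 and 5 fell without day 12 replicates 1, 2 and 3 and 9 fell without untreated replicate 1. On library size alone, without TMM factors, 124 genes rose and 69 fell, so that raised genes made up 64.2% of the calls, against 84.2% with TMM.

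**Figure D1:**
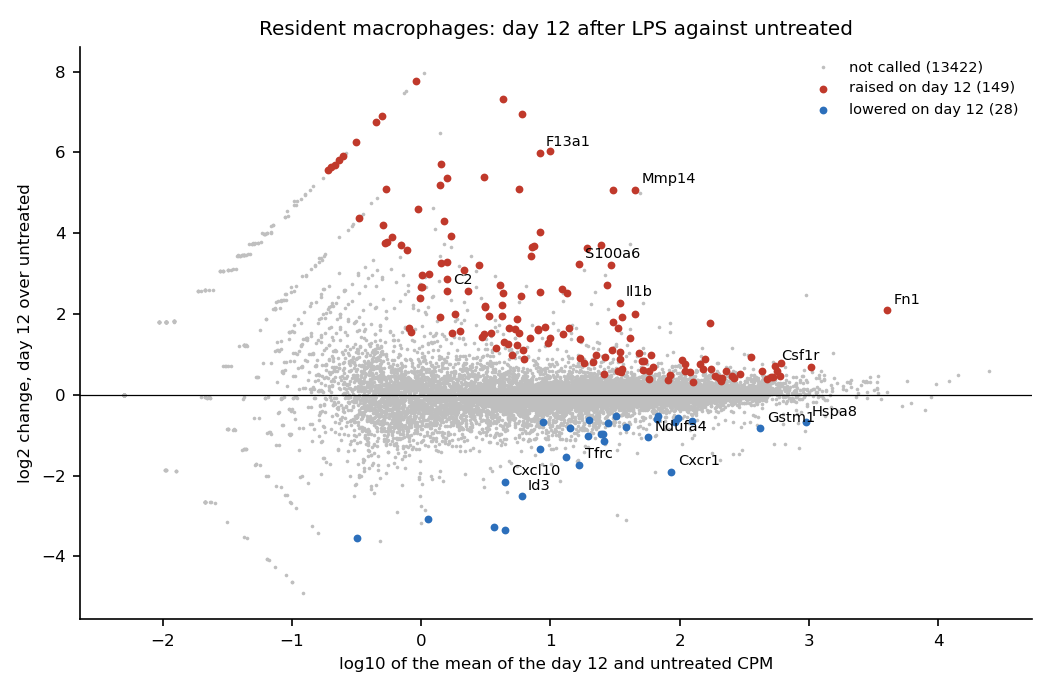
Log2 change of each of the 13599 tested genes, day 12 over untreated (vertical axis), against the log10 of its mean CPM (horizontal axis), with 149 raised genes in red, 28 lowered genes in blue and the others in grey. Raised genes spread over the whole range of levels and reach larger changes than lowered genes, and the streaks at the left are genes with few or no counts in 1 of the groups.

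The change on day 12 was small beside the change since day 3, the first day sampled after LPS. Relative to day 3, 1531 genes rose (11.3%) and 1758 fell (12.9%) by day 12 in the same fit, and without day 3 replicate 3 the counts were 748 and 1126. Nos2, the inducible nitric oxide synthase, had 0.0637, 0 and 0.168 CPM on day 12 and was listed at 0 in the untreated libraries, beside 115, 55.6 and 80.1 CPM on day 3. Itgam, which encodes the CD11b of the sort, had 16.8, 6.03 and 9.34 CPM in day 12 macrophages, against 10.3, 5.06 and 5.35 CPM in untreated macrophages, beside 352, 329 and 514 CPM on day 3. Both genes were thus far below their day 3 level on day 12. Over days 3, 6, 9 and 12 the highest mean of a raised gene fell on day 3 in 61 genes, on day 6 in 21, on day 9 in 14 and on day 12 in 53.

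The 6 libraries held 12079093 to 17625541 counts. Reads outside any gene were 7.06% to 8.81% on day 12 and 9.16% to 11.2% in untreated libraries. Day 12 replicate 1 and untreated replicate 1 stood apart from the other libraries of their groups. Day 12 replicate 1 was the highest of its group in 96 of the 149 raised genes, and in 39.4% of all genes, and untreated replicate 1 was the highest of its group in 20 of the 28 lowered genes, and in 41.4% of all genes. On the third principal component of the 15 resident libraries, which held 7.49% of the variance, day 12 replicate 1 lay at 24.3, beside resident day 9 replicate 2 at 24.5, while the other day 12 libraries lay at -2.95 and -3.55. In the names of the deposited columns of unassigned reads each library carries a number. The numbers were grouped here into runs of 2 to 9, 12 to 18, 19 to 28 and 34 to 53, which the labels do not name. Replicates 2 of both groups share a run, as do replicates 3. Day 12 replicate 1 carries 13, next to day 9 replicate 2 with 12, and untreated replicate 1 carries 9. The runs of 13 and 9 hold no other of the 6 libraries. The run of numbers and the replicate thus cannot be told apart for these replicate 1 libraries. With both left out, 2 day 12 libraries against 2 untreated libraries gave 50 raised genes and 1 lowered gene, and 46 of the 50 are among the 149. Leaving out 1 library at a time, 57 of the raised genes and 3 of the lowered genes were called in all 6 fits.

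The 6 libraries had the transcripts that define resident alveolar macrophages. Siglecf, the sialic acid receptor that marks these cells, had 441, 539 and 582 CPM in day 12 macrophages, against 325, 503 and 484 CPM in untreated macrophages. Itgax, the CD11c of the sort, had 2324, 2188 and 2306 CPM in day 12 macrophages, against 1699, 1896 and 1856 CPM in untreated macrophages. Pparg, the gene of PPARγ, had 159, 173 and 186 CPM in day 12 macrophages, against 129, 179 and 195 CPM in untreated macrophages. None of these genes passed the test (log2 changes 0.25, 0.32 and 0.04, adjusted p = 0.933, 0.597 and 0.983). Of 35 tested genes of a list of resident identity, 0 rose and 0 fell in edgeR (2 higher and 0 lower at an unadjusted p under 0.05, and 1 raised and 0 lowered in DESeq2), with a median log2 change of 0.11 beside 0.02 for all genes. Chil3, a chitinase-like protein secreted in bulk by these cells, had 15915, 16704 and 17335 CPM in day 12 macrophages, against 10912, 12134 and 12267 CPM in untreated macrophages. For Chil3 the log2 change was 0.50 ± 0.45 (SE), with adjusted p = 0.76. Every day 12 library exceeded every untreated library for Chil3, by a change about as large as its standard error. That error draws on the spread in all 27 libraries. The SD of Chil3 was 712 CPM on day 12 and 746 CPM in untreated cells, and recruited day 12 libraries had 1366, 7654 and 7204 CPM. Other identity genes followed single libraries: Car4, a carbonic anhydrase, had 1207, 404 and 425 CPM in day 12 macrophages, against 227, 454 and 473 CPM in untreated macrophages, and Fabp4, a fatty acid binding protein, had 86.8, 99.1 and 83.3 CPM in day 12 macrophages, against 240.2, 93.9 and 104 CPM in untreated macrophages. Marco, a scavenger receptor for bacteria and particles, had 274, 199 and 185 CPM in day 12 macrophages, against 389, 398 and 358 CPM in untreated macrophages, and it did not pass the test either. For Marco the log2 change was -0.80 ± 0.84 (SE), with adjusted p = 0.812. Its day 12 libraries were all below its untreated libraries, and resident day 9 libraries had 148, 1228 and 232 CPM. Of the 16 alternatives 0 called Chil3 and 1 called Marco.

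The largest rise among genes with at least 20 CPM was in Mmp14, a membrane-bound collagenase that also activates other matrix proteases. It had 164, 49.7 and 49.9 CPM in day 12 macrophages, against 4.56, 1.92 and 1.26 CPM in untreated macrophages, and 541, 299 and 293 CPM in recruited macrophages of day 12. Replicate 1 was more than 3 times as high as the other day 12 libraries, and each of these was more than 10 times as high as the highest untreated library. The call held in all 6 fits that left out 1 library. Mmp14 rose by 5.08 ± 0.61 (log2, SE), with adjusted p = 7.68e-05. Mmp14 lies on chr14, at 54431612 to 54445364 of GRCm38, on the plus strand. Fn1, fibronectin, the glycoprotein of provisional matrix, was already among the abundant transcripts and had 10029, 4462 and 5076 CPM in day 12 macrophages, against 1191, 1956 and 1417 CPM in untreated macrophages. Its groups did not overlap, and its mean was highest on day 6, at 8219.9 CPM. The rise of Fn1 (log2 change 2.10 ± 0.33 (SE), adjusted p = 0.0014) held in all 6 fits that left out 1 library.

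Fmnl2, a formin that lengthens actin filaments, had the smallest p of all genes. It had 15.9, 22.7 and 19.8 CPM in day 12 macrophages, against 0.450, 0.0766 and 0.315 CPM in untreated macrophages, and 51.9, 77.1 and 82.9 CPM on day 3. Fmnl2 rose by 6.02 ± 0.33 (log2, SE), with adjusted p = 1.03e-10. The day 12 libraries lay close together and well above untreated cells, at a fraction of the day 3 level, and the call held in all 6 fits that left out 1 library. Further genes with small p-values were singled out here after their values were seen. Gpr35, a G protein-coupled receptor, had 54.6, 46.3 and 51.1 CPM in day 12 macrophages, against 17.3, 17.1 and 14 CPM in untreated macrophages. Gpr35 rose by 1.65 ± 0.15 (log2, SE), with adjusted p = 1.78e-06. Unlike Fmnl2, it was higher on day 12 than on day 3, when it had 31.1, 24.1 and 25.8 CPM (log2 change, day 12 over day 3, 0.91, adjusted p = 0.00018). Slc30a4, a zinc transporter, had 5.79, 9.05 and 7.22 CPM in day 12 macrophages, against 0.707, 1.15 and 1.95 CPM in untreated macrophages. Slc30a4 rose by 2.52 ± 0.27 (log2, SE), with adjusted p = 9.33e-06. Sdc4, the heparan sulfate proteoglycan syndecan-4, had 18, 10.2 and 8.06 CPM in day 12 macrophages, against 0.129, 0.0766 and 0.0629 CPM in untreated macrophages. Sdc4 rose by 6.94 ± 0.82 (log2, SE), with adjusted p = 6.86e-05. It had 41.9, 78.2 and 92.1 CPM on day 3. In each of these genes every day 12 library was more than 2 times as high as every untreated library, and no call was lost when 1 library was left out.

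Smaller rises were found in abundant genes. Csf1r, the receptor for the macrophage growth factor CSF1, had 739, 591 and 695 CPM in day 12 macrophages, against 373, 445 and 416 CPM in untreated macrophages. Csf1r rose by 0.71 ± 0.12 (log2, SE), with adjusted p = 0.00258. Plxnd1, a semaphorin receptor, had 431, 509.5 and 457 CPM in day 12 macrophages, against 276, 234 and 219.8 CPM in untreated macrophages. Plxnd1 rose by 0.94 ± 0.16 (log2, SE), with adjusted p = 0.00234. Inf2, a formin that both builds and severs actin, had 178, 233 and 233 CPM in day 12 macrophages, against 124, 145 and 142 CPM in untreated macrophages. Inf2 rose by 0.64 ± 0.10 (log2, SE), with adjusted p = 0.00102. The groups of these genes were apart, with a day 12 range about as wide as the gap between the groups in Csf1r and wider than it in Inf2, and their calls held in all 6 fits that left out 1 library. Ptprs, a receptor tyrosine phosphatase, behaved alike, with 63.3, 67.8 and 65.5 CPM in day 12 macrophages, against 31.6, 32.9 and 31.6 CPM in untreated macrophages. Ptprs rose by 1.03 ± 0.15 (log2, SE), with adjusted p = 0.000361. Its level was 55.1, 65.2 and 54.9 CPM on day 3 and 48.6, 59.9 and 60.7 CPM on day 9. Ptprs thus stood above its untreated libraries on every day measured after LPS.

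**Figure D2:**
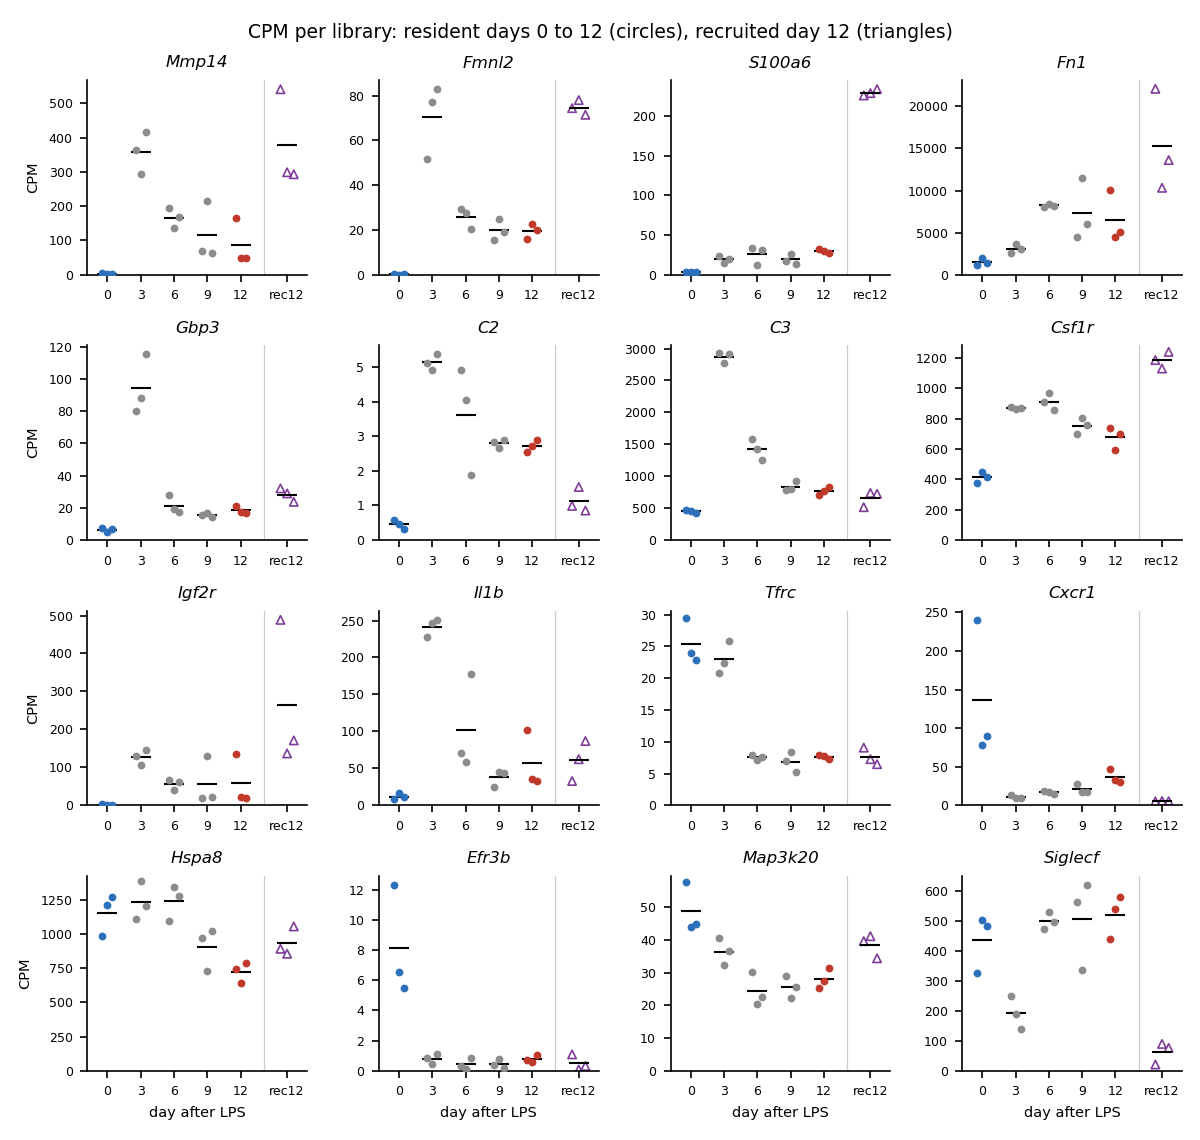
CPM of 16 genes in each library (vertical axis, starting at 0) for resident macrophages on days 0, 3, 6, 9 and 12 after LPS (circles, untreated in blue and day 12 in red) and for recruited macrophages on day 12 (open triangles, rec12), 3 libraries each, with the mean as a bar. Among resident cells Mmp14, Fmnl2, Gbp3, C2 and C3 are highest on day 3 and are still above untreated cells on day 12, Fn1 is highest on day 6, Tfrc and Map3k20 are low from day 6 on, and the Siglecf libraries of day 12 overlap those of untreated cells.

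Other large rises had their highest value in day 12 replicate 1. Igf2r, the cation-independent mannose 6-phosphate receptor that sorts enzymes to lysosomes, had 134, 22.4 and 20.3 CPM in day 12 macrophages, against 3.6, 0.996 and 0.629 CPM in untreated macrophages. Igf2r rose by 5.06 ± 0.95 (log2, SE), with adjusted p = 0.00772. Its call was lost without day 12 replicate 1 or untreated replicates 2 and 3 (adjusted p 0.0534 to 0.0739). Sash1, a signalling scaffold, had 91.4, 22.5 and 22.8 CPM in day 12 macrophages, against 2.89, 4.21 and 3.33 CPM in untreated macrophages. Sash1 rose by 3.72 ± 0.76 (log2, SE), with adjusted p = 0.0142, a call lost without day 12 replicate 1 or untreated replicates 1, 2 and 3 (adjusted p 0.0592 to 0.13). The creatine transporter Slc6a8 had 68.1, 19.4 and 18.2 CPM in day 12 macrophages, against 4.82, 2.07 and 1.51 CPM in untreated macrophages. Slc6a8 rose by 3.64 ± 0.72 (log2, SE), with adjusted p = 0.0112, a call lost without day 12 replicate 1 or untreated replicates 2 and 3 (adjusted p 0.0671 to 0.111). In these genes, replicate 1 was more than 3 times as high as the other day 12 libraries, which were nonetheless above all untreated libraries. Without replicate 1 the log2 change was 3.56 for Igf2r, 2.68 for Sash1, 2.70 for Slc6a8 and 2.38 for Fam20c. Fam20c, the kinase of secreted proteins, had 99.1, 31.3 and 30.2 CPM in day 12 macrophages, against 10.7, 3.06 and 3.33 CPM in untreated macrophages. Fam20c rose by 3.22 ± 0.73 (log2, SE), with adjusted p = 0.0296, a call lost without day 12 replicate 1 or untreated replicates 2 and 3 (adjusted p 0.136 to 0.218). Gng12, a G protein subunit, had 101, 57.6 and 58.5 CPM in day 12 macrophages, against 19.7, 15.9 and 18.8 CPM in untreated macrophages (log2 change 1.99 ± 0.28 (SE), adjusted p = 0.000337), and of these it was the gene whose call held whichever library was left out.

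**Figure D3:**
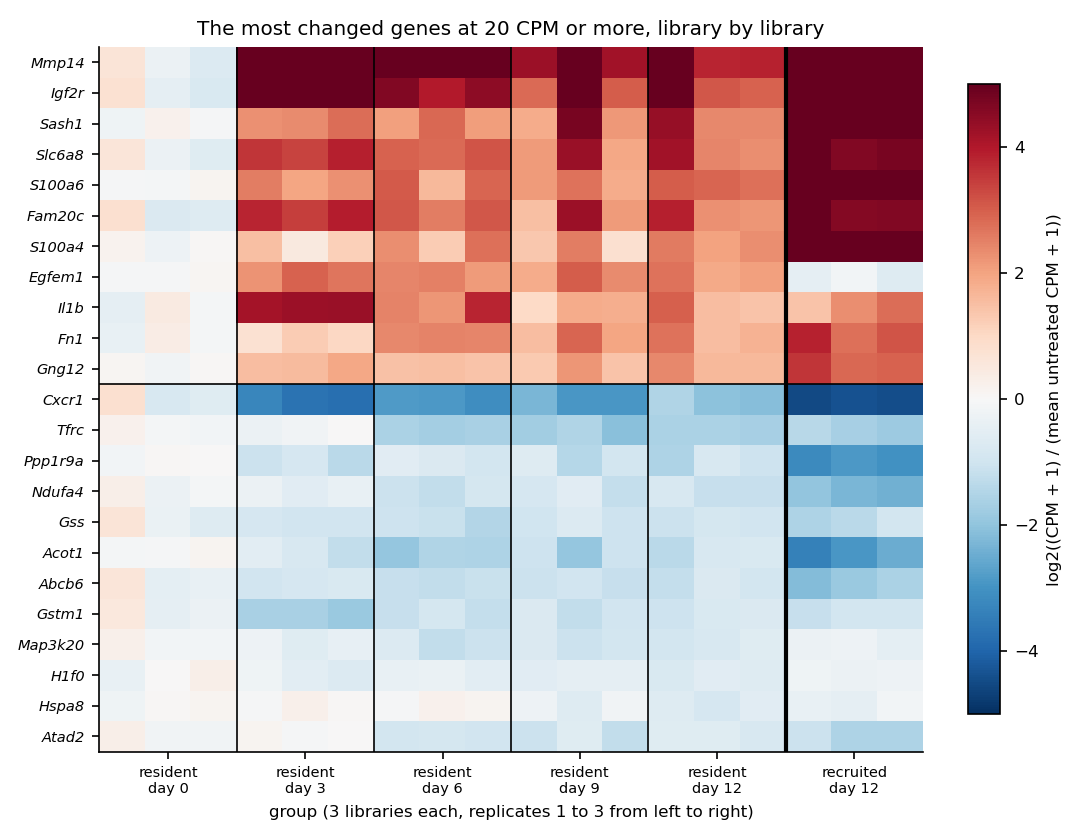
Change of 11 of the 12 most raised (above the line) and 12 most lowered (below it) called genes that reach 20 CPM in the higher group, as log2 of (CPM + 1) over (mean untreated CPM + 1), in each of the 3 libraries of the resident groups in order of day and of the recruited day 12 group. In day 12 replicate 1 and day 9 replicate 2, Igf2r, Sash1, Slc6a8 and Fam20c stand above the other libraries of the same day, and of the raised genes shown Egfem1 is the one that is not above untreated cells in recruited cells.

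A list of classical monocyte genes held the most raised members. Of its 19 tested genes 5 rose and 0 fell, beside 1.1% and 0.206% of all tested genes. The median log2 change of the list was 0.89, or 1.01 with Ifitm6, which had no count in untreated cells, at its lower bound. S100a6, a small calcium-binding protein, had 32.8, 30.2 and 26.9 CPM in day 12 macrophages, against 2.96, 2.91 and 3.65 CPM in untreated macrophages, and 226, 229 and 234 CPM in recruited day 12 cells. The 3 libraries of each group were close and the call held in all 6 fits that left out 1 library. S100a6 rose by 3.23 ± 0.32 (log2, SE), with adjusted p = 3.84e-06. F13a1, the A subunit of clotting factor XIII and a monocyte transcript, had 20.1, 12.7 and 15.8 CPM in day 12 macrophages, against 0.386, 0.153 and 0.189 CPM in untreated macrophages. F13a1 rose by 5.99 ± 1.04 (log2, SE), with adjusted p = 0.00349. Its level was 10.7, 5.26 and 21.7 CPM on day 3, 2.78, 1.04 and 6.38 CPM on day 6 and 1.01, 4.64 and 1.63 CPM on day 9, so that the day 12 libraries were above all those of days 6 and 9 and overlapped those of day 3. S100a4, another member of the S100 family, had 25.5, 16.8 and 21 CPM in day 12 macrophages, against 3.92, 2.68 and 3.59 CPM in untreated macrophages. S100a4 rose by 2.63 ± 0.57 (log2, SE), with adjusted p = 0.0204, a call lost without day 12 replicates 1 and 3 or untreated replicates 1, 2 and 3 (adjusted p 0.0559 to 0.113). Fn1 is the fourth raised member and Emilin2, a matrix protein, the fifth. Emilin2 rose by 0.89 ± 0.19 (log2, SE), with adjusted p = 0.0167, a call lost without day 12 replicate 1 or untreated replicates 1 and 3 (adjusted p 0.0528 to 0.134). With both replicate 1 libraries left out 1 of the 5 was still called. Ccr2, the receptor that brings monocytes into tissue, had 26.5, 17.3 and 18.5 CPM in day 12 macrophages, against 5.78, 9.27 and 9.0 CPM in untreated macrophages. For Ccr2 the log2 change was 1.38 ± 0.46 (SE), with adjusted p = 0.18. Ly6c2, the surface marker of classical monocytes, had 0.891, 0.147 and 0.112 CPM in day 12 macrophages, against 0, 0 and 0.252 CPM in untreated macrophages (log2 change 1.99 ± 1.82 (SE), adjusted p = 0.768), so that neither passed the test. In bulk RNA, a few cells with much of a transcript and many cells with little of it cannot be told apart.

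Genes of monocyte-derived and interstitial macrophages rose in 2 of 28 tested members, Mmp14 and Csf1r, and fell in 0, beside 1.1% and 0.206% of all tested genes. The median log2 change of the list was 0.79. Other members followed day 12 replicate 1. Apoe, a lipid carrier, had 185, 54.2 and 76.7 CPM in day 12 macrophages, against 29.6, 31 and 37.8 CPM in untreated macrophages, and 19515, 4503 and 5963 CPM in recruited day 12 cells. For Apoe the log2 change was 1.68 ± 0.56 (SE), with adjusted p = 0.17. C1qa, a chain of complement C1q, had 7.64, 0.736 and 0.224 CPM in day 12 macrophages, against 1.29, 0.306 and 0.0629 CPM in untreated macrophages, and 1239, 89.1 and 100.2 CPM in recruited day 12 cells. For C1qa the log2 change was 2.34 ± 1.82 (SE), with adjusted p = 0.701. Without day 12 replicate 1 the log2 change of C1qa was -0.34 and that of Apoe 0.97, neither of them called. Arg1, arginase 1, likewise had 11.4, 0.809 and 1.06 CPM in day 12 macrophages, against 0.514, 0.460 and 0.252 CPM in untreated macrophages. For Arg1 the log2 change was 3.43 ± 1.97 (SE), with adjusted p = 0.56. Scavenger receptor Msr1 had 162, 50.5 and 47.8 CPM in day 12 macrophages, against 21.1, 16.5 and 16 CPM in untreated macrophages. For Msr1 the log2 change was 2.28 ± 0.58 (SE), with adjusted p = 0.0625. Ass1, the argininosuccinate synthase that regenerates arginine, did not depend on that library: it had 6.88, 8.02 and 6.55 CPM in day 12 macrophages, against 1.74, 0.766 and 0.692 CPM in untreated macrophages. Ass1 rose by 2.72 ± 0.38 (log2, SE), with adjusted p = 0.000337. Its call held in all 6 fits that left out 1 library.

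Most of the raised genes were higher still in recruited macrophages of the same day. In 105 of the 149 genes all 3 recruited day 12 libraries lay above all 3 resident day 12 libraries, which was so in 18.7% of all tested genes, and in 16 genes they all lay below, which was so in 22%. Of the 57 genes called in all 6 fits that left out 1 library, the recruited libraries lay above in 51 and below in 2. In those 105 genes, the gain of the resident mean over the untreated mean was 2.53% to 44.5% of the recruited mean, with a median of 17.8% and quartiles of 9.85% and 27.2%. These genes were chosen as higher in recruited cells, so a gain below the recruited mean was fixed by the choice. The gain was 4.33% of the recruited level for F13a1, 11.7% for S100a6, 22.3% for Csf1r and 32.6% for Fn1. Among genes that did not pass the test it was 0.725% for Apoe, 0.486% for C1qa and 0.779% for C1qb. Without resident day 12 replicate 1 their log2 changes were 0.97, -0.34 and 1.04. Recruited day 12 replicate 1 was the highest of its group for these genes. It carries number 18, in the same run of numbers as resident day 12 replicate 1. The gain as a share of the recruited level differed from gene to gene, and the part of recruited cells in the resident libraries was not tested.

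**Figure D4:**
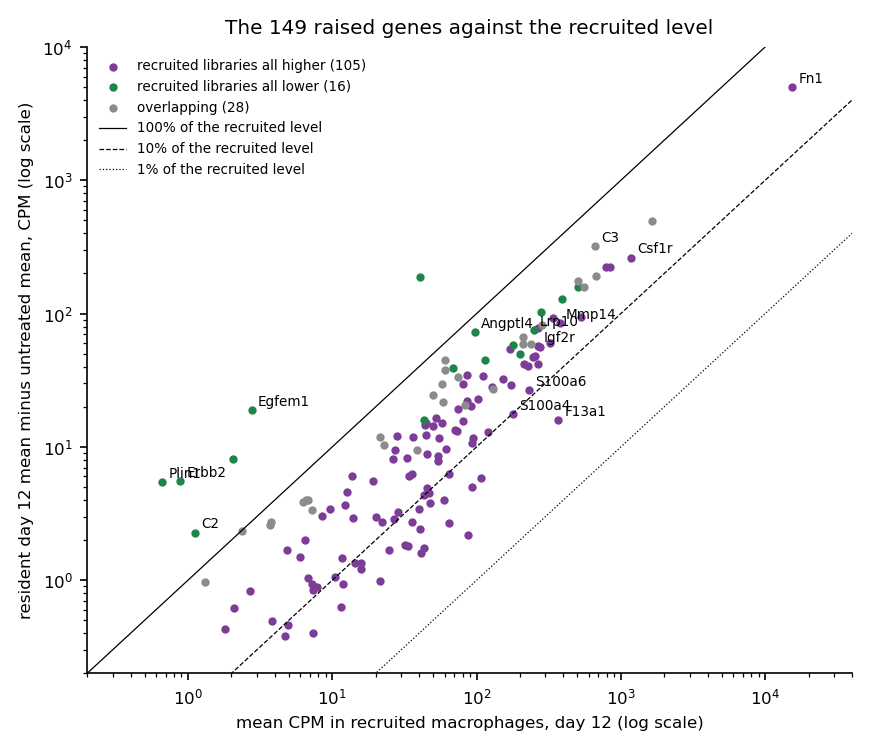
Gain of the 149 raised genes (resident day 12 mean minus untreated mean, CPM, log axis) against their mean CPM in recruited macrophages of day 12 (log axis), coloured by whether the 3 recruited libraries lay above the 3 resident day 12 libraries (105 genes), below them (16) or overlapped (28); lines mark gains of 1%, 10% and 100% of the recruited level. Most genes lie between the lines of 1% and 100%, and Adcy4, C2, Ccdc80, Egfem1, Erbb2 and Plin1, 6 genes in all, lie above the line of 100%.

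The 16 raised genes that were lower in recruited cells were Adcy4, Adcy7, Angptl4, C2, Ccdc80, Dok2, Egfem1, Erbb2, Fam160b2, Lrp10, Mgat1, Plin1, Selplg, Sema4a, Sptbn1 and Tnip1. Adcy4, an adenylate cyclase that makes cyclic AMP, had 15.3, 6.92 and 7.61 CPM in day 12 macrophages, against 2.19, 1.53 and 1.76 CPM in untreated macrophages, and 2.25, 1.82 and 2.14 CPM in recruited cells. Adcy4 rose by 2.43 ± 0.36 (log2, SE), with adjusted p = 0.000577. It is 1 of the 2 of these genes, with C2, whose call held in all 6 fits that left out 1 library. Plin1, a protein of the surface of lipid droplets, had 7.39, 8.09 and 5.37 CPM in day 12 macrophages, against 1.61, 0.996 and 1.82 CPM in untreated macrophages, and 0.629, 0.698 and 0.671 CPM in recruited cells. Plin1 rose by 2.21 ± 0.50 (log2, SE), with adjusted p = 0.0237, a call lost without day 12 replicates 1 and 2 or untreated replicates 1, 2 and 3 (adjusted p 0.0766 to 0.124). The growth factor receptor Erbb2 had 9.3, 5.96 and 9.06 CPM in day 12 macrophages, against 2.06, 2.53 and 3.21 CPM in untreated macrophages, and 0.180, 1.19 and 1.28 CPM in recruited cells. Erbb2 rose by 1.64 ± 0.32 (log2, SE), with adjusted p = 0.00762, a call lost without day 12 replicate 1 or untreated replicate 1 (adjusted p 0.0575 to 0.059). The resident day 12 libraries of these genes were apart from both the untreated and the recruited libraries. Angptl4, an inhibitor of lipoprotein lipase and a target of PPAR receptors, had 231, 146 and 160.0 CPM in day 12 macrophages, against 101, 121 and 97.6 CPM in untreated macrophages. Angptl4 rose by 0.75 ± 0.15 (log2, SE), with adjusted p = 0.00918, a call lost without day 12 replicate 1 or untreated replicates 1 and 3 (adjusted p 0.0547 to 0.15). Its day 12 libraries lay above all untreated ones, with replicate 1 the highest. Egfem1 had 31.5, 17.5 and 19.3 CPM in day 12 macrophages, against 3.79, 3.75 and 4.34 CPM in untreated macrophages, and 2.6, 3.49 and 2.2 CPM in recruited cells. Egfem1 rose by 2.52 ± 0.55 (log2, SE), with adjusted p = 0.0196, a call lost without day 12 replicate 1 or untreated replicates 1, 2 and 3 (adjusted p 0.083 to 0.13). Ccdc80, a secreted matrix protein, had 445, 167 and 179 CPM in day 12 macrophages, against 49, 92.7 and 88.3 CPM in untreated macrophages. Ccdc80 rose by 1.78 ± 0.38 (log2, SE), with adjusted p = 0.0167, a call lost without day 12 replicate 1 or untreated replicates 1 and 3 (adjusted p 0.0573 to 0.202). Replicate 1 was the highest day 12 library of both Egfem1 and Ccdc80, and the others were above all untreated libraries.

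Some rare transcripts, singled out after their values were seen, had their highest mean on day 12 among resident cells. Gypc, glycophorin C of the membrane skeleton, had 1.66, 1.62 and 2.24 CPM on day 12 and no count in any untreated library, which makes it at least 27.7-fold higher against a floor of 3 counts over the untreated group (adjusted p = 1.43e-05). Its level was 0.626, 0.261 and 0.322 CPM on day 6, 0.0630, 0.464 and 0.0581 CPM on day 9, and 35.9, 29.5 and 29.8 CPM in recruited day 12 cells. On the same floor, Dach1, a nuclear repressor, was at least 13.5-fold higher with 1.02, 0.662 and 1.01 CPM on day 12, and the nucleotide receptor P2ry1 at least 9.44-fold higher with 0.764, 0.515 and 0.616 CPM. All day 12 libraries of these genes were above all those of days 6 and 9, and those of Gypc and P2ry1 were also above all day 3 libraries. Dach1 overlapped day 3, with 0.460, 0.0834 and 1.24 CPM. Esr1, the oestrogen receptor alpha, had 1.21, 0.883 and 1.29 CPM in day 12 macrophages, against 0.129, 0.0766 and 0 CPM in untreated macrophages, a ratio of 17 with a counting interval of 5.51 to 84.9 (95%), and the kinase Stk26 had 0.573, 1.18 and 1.18 CPM in day 12 macrophages, against 0, 0.0766 and 0.0629 CPM in untreated macrophages, a ratio of 21.7 with an interval of 5.68 to 185. The calls of all 5 held in the 6 fits that left out 1 library, and their recruited day 12 means were 31.7 CPM (Gypc), 7.82 CPM (Dach1), 11.6 CPM (P2ry1), 10.4 CPM (Esr1) and 7.18 CPM (Stk26). The count filter and these 6 fits all took in the recruited libraries. Only 13 of the 16 alternatives gave an adjusted p for P2ry1 and Stk26, and 15 gave one for Dach1 and Esr1.

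Complement, the plasma protease cascade that tags particles for uptake, had 3 raised genes of 15 tested, and 0 that fell (all tested genes: 1.1% and 0.206%). Without day 12 replicate 1 or without untreated replicate 1, 1 of the 3 was called, and on library size alone 2 were. C2, the protease subunit of the classical pathway convertase, had 2.55, 2.72 and 2.91 CPM in day 12 macrophages, against 0.578, 0.460 and 0.315 CPM in untreated macrophages. C2 rose by 2.58 ± 0.40 (log2, SE), with adjusted p = 0.000851. Its call held in all 6 fits that left out 1 library. C1ra, the protease C1r, had 76.5, 62.8 and 59.4 CPM in day 12 macrophages, against 25.8, 44.2 and 40.5 CPM in untreated macrophages. C1ra rose by 0.85 ± 0.18 (log2, SE), with adjusted p = 0.0166, a call lost without day 12 replicate 1 or untreated replicate 1 (adjusted p 0.127 to 0.159). C3, the central component on which all routes meet, had 707, 774 and 829 CPM in day 12 macrophages, against 475, 451 and 421 CPM in untreated macrophages. C3 rose by 0.78 ± 0.18 (log2, SE), with adjusted p = 0.0236, a call lost in all 6 fits that left out 1 library (adjusted p 0.0655 to 0.119). All 3 genes peaked on day 3, with C3 at 2926, 2775 and 2915 CPM and C1ra at 155, 139 and 184 CPM, and the untreated and day 12 libraries were apart in each. C4b, in contrast, had 277, 4.78 and 6.55 CPM in day 12 macrophages, against 4.88, 1.92 and 2.14 CPM in untreated macrophages, and Cfb, factor B of the alternative pathway, had 63.7, 36.3 and 34.6 CPM in day 12 macrophages, against 26.8, 17.4 and 13.7 CPM in untreated macrophages. Of the 6 compared libraries C4b was high in day 12 replicate 1 alone, and among the other resident libraries it was higher still in day 9 replicate 2 (day 9 had 4.6, 453 and 22.4 CPM). Neither gene passed the test (5.0 ± 1.75, adjusted p = 0.209 for C4b and 1.22 ± 0.47, adjusted p = 0.266 for Cfb).

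The promoters of the complement genes that rose, and of the top 2 in either direction among genes with at least 20 CPM, are given to show which known binding motifs stand near their starts. C2 belongs to this set and is named only. Each window runs from 250 bases before to 50 bases after a RefSeq transcription start on GRCm38.p6, 5′ to 3′ on the strand of the gene, with motif matches in capitals. Both strands were searched. The STAT site was read as TTCNNNGAA and the NF-κB type site as GGGNNNNCC. The E-box, bound by factors such as Usf and Myc, was read as CACGTG. The AP-1 site, bound by Fos and Jun proteins, was read as TGANTCA. The cell cycle homology region, found in promoters of mitotic genes, was read as TTTGAA. The CCAAT box, the binding sequence of the factor NF-Y, was read by the letters of its name. The interferon-stimulated response element, the sterol response element and the PPAR:RXR element were searched by their consensus. Matches may overlap.
C3, chr17:57228087-57228386, minus strand: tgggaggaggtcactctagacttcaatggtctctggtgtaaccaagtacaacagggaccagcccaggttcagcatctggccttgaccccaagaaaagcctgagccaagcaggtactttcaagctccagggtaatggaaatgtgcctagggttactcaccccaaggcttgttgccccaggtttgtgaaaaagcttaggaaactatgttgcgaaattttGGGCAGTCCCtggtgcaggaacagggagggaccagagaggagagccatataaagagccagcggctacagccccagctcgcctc
C1ra, chr6:124512371-124512670, plus strand: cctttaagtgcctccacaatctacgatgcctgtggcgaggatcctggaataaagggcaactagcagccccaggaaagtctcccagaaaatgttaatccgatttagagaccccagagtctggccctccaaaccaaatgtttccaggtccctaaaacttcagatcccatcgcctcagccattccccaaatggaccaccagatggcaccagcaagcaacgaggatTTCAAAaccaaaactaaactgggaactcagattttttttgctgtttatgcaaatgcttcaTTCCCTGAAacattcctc
Mmp14, chr14:54431348-54431647, plus strand: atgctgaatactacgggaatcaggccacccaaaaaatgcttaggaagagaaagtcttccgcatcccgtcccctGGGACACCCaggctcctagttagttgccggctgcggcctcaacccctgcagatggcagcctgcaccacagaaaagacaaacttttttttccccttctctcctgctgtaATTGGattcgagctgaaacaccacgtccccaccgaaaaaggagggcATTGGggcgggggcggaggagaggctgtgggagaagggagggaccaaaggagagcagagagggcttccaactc
Igf2r, chr17:12769657-12769956, minus strand: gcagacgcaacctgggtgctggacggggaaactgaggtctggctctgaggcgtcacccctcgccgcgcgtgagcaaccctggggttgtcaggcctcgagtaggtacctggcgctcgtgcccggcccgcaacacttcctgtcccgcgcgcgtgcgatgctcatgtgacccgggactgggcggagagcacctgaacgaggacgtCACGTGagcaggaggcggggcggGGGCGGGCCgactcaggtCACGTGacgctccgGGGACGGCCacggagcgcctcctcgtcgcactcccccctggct
Cxcr1, chr1:74194582-74194881, minus strand: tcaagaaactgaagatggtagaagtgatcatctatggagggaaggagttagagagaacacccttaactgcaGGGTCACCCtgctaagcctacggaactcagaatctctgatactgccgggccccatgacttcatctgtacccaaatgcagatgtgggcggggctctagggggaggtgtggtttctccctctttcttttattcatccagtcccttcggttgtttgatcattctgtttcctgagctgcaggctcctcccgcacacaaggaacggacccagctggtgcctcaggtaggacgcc
Tfrc, chr16:32608646-32608945, plus strand: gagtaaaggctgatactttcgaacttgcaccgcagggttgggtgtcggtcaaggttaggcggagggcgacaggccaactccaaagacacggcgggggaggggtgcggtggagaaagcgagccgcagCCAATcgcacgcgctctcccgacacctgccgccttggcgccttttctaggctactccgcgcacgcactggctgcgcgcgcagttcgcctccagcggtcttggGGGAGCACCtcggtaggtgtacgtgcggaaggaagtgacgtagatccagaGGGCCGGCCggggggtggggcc
The C3 window held 2 overlapping NF-κB type matches, and C1ra held a STAT site and a cell cycle homology region. Mmp14 held 2 CCAAT boxes and 1 NF-κB type match. Igf2r held 2 E-boxes and 2 NF-κB type matches. Cxcr1 held 1 NF-κB type match, and Tfrc held 1 CCAAT box and 2 NF-κB type matches. Of all 32851 promoter windows in the table, 43.8% held the NF-κB type motif, 37.4% the CCAAT box and 17.9% the cell cycle homology region. The STAT site stood in 8.3%, AP-1 in 7.81%, the E-box in 7.15%, the interferon-stimulated response element in 3.44%, the sterol response element in 0.234% and the PPAR:RXR element in 0.0396%. A match is a run of letters and says nothing of binding in these cells.

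Genes induced by interferon gamma rose in 4 and fell in 1 of 24 tested members, beside 1.1% and 0.206% of all tested genes. The median log2 change of the list was 0.53. Gbp3, a guanylate-binding protein of cell-autonomous defence, had 21.1, 17.6 and 16.7 CPM in day 12 macrophages, against 7.58, 4.98 and 6.92 CPM in untreated macrophages, beside 80, 87.8 and 115 CPM on day 3. Gbp3 rose by 1.5 ± 0.23 (log2, SE), with adjusted p = 0.000688. It kept its call in all 6 fits that left out 1 library, as did the GTPase gene Gm4951 (3.28 ± 0.58, adjusted p = 0.00293), which had 3.12, 1.84 and 3.64 CPM in day 12 macrophages, against 0.321, 0.0766 and 0.440 CPM in untreated macrophages. Serpina3g, a serine protease inhibitor, had 3.18, 3.02 and 2.35 CPM in day 12 macrophages, against 0.129, 0.0766 and 0.189 CPM in untreated macrophages and 127, 283 and 496 CPM on day 3. Serpina3g rose by 4.31 ± 0.93 (log2, SE), with adjusted p = 0.0182, a call lost without day 12 replicate 1 or untreated replicates 1, 2 and 3 (adjusted p 0.0771 to 0.0975). Nlrc5, the transactivator of MHC class I genes, had 47.1, 36.3 and 40.1 CPM in day 12 macrophages, against 22, 20.2 and 14.9 CPM in untreated macrophages. Nlrc5 rose by 1.11 ± 0.23 (log2, SE), with adjusted p = 0.0142, a call lost without day 12 replicate 1 or untreated replicate 3 (adjusted p 0.0991 to 0.115). Cxcl10, a chemokine for activated T cells, went the other way, with 1.97, 1.84 and 1.12 CPM in day 12 macrophages, against 9.58, 6.59 and 5.47 CPM in untreated macrophages, although it had been far higher on day 3, at 91.8, 144 and 177 CPM. Cxcl10 fell by 2.15 ± 0.43 (log2, SE), with adjusted p = 0.0123, a call lost without day 12 replicate 3 or untreated replicate 1 (adjusted p 0.076 to 0.0884). Cxcl9, a related chemokine, had 8.53, 6.4 and 5.2 CPM in day 12 macrophages, against 4.5, 3.6 and 2.01 CPM in untreated macrophages and did not pass the test (adjusted p = 0.574). Of 39 tested antiviral genes induced by type I interferon, 0 rose and 0 fell in edgeR or in DESeq2 (0 higher and 3 lower at an unadjusted p under 0.05), with a median log2 change of -0.10.

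Of 20 genes of MHC class I presentation 3 rose and 0 fell (all tested genes: 1.1% and 0.206%), with a median log2 change of 0.30. H2-K1, a class I heavy chain, had 1523, 1198 and 1165 CPM in day 12 macrophages, against 968, 727 and 698 CPM in untreated macrophages. H2-K1 rose by 0.70 ± 0.17 (log2, SE), with adjusted p = 0.031, a call lost without day 12 replicate 1 or untreated replicates 2 and 3 (adjusted p 0.138 to 0.264). The others were Nlrc5 and the non-classical H2-M3. H2-M3 rose by 0.52 ± 0.12 (log2, SE), with adjusted p = 0.0294, a call lost without day 12 replicates 1 and 2 or untreated replicates 2 and 3 (adjusted p 0.0531 to 0.272). None of the 3 was called without day 12 replicate 1. Class II genes, which load peptides for CD4 T cells, were higher in mean on day 12 in all 16 tested members (15 of 16 on library size alone), with a median log2 change of 0.52, but 0 passed the test in edgeR and 1 was raised in DESeq2, and 7 had an unadjusted p under 0.05. H2-Ab1 had 578, 313 and 377 CPM in day 12 macrophages, against 239, 176 and 211 CPM in untreated macrophages. For H2-Ab1 the log2 change was 1.02 ± 0.41 (SE), with adjusted p = 0.288. Cd74, the invariant chain, had 2697, 1544 and 1906 CPM in day 12 macrophages, against 1081, 870.1 and 1066 CPM in untreated macrophages. For Cd74 the log2 change was 1.03 ± 0.35 (SE), with adjusted p = 0.177. Ciita, the class II transactivator, had 42.8, 27.7 and 28.3 CPM in day 12 macrophages, against 11.9, 19.3 and 20 CPM in untreated macrophages. For Ciita the log2 change was 0.95 ± 0.30 (SE), with adjusted p = 0.142. The day 12 libraries were above the untreated libraries in each of these, with replicate 1 the highest. Recruited day 12 cells had 548, 465 and 433 CPM of H2-Ab1, within the range of the resident cells of that day.

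Of 29 tested inflammatory cytokines and mediators 2 rose and 0 fell, beside 1.1% and 0.206% of all tested genes. Their median log2 change was 0.01, or 0.04 with genes without an untreated count at their bound. Il1b, which encodes interleukin-1β, had 101, 36.2 and 33.3 CPM in day 12 macrophages, against 8.23, 16.2 and 10.8 CPM in untreated macrophages, and 227, 246 and 251 CPM on day 3. Il1b rose by 2.28 ± 0.54 (log2, SE), with adjusted p = 0.0387, a call lost without day 12 replicate 1 or untreated replicates 1, 2 and 3 (adjusted p 0.0733 to 0.295). Its day 12 replicate 1 was more than 2 times as high as the other day 12 libraries, which were above all untreated ones. Irak3, an inhibitor of signalling by Toll-like receptors, had 43.7, 44.4 and 43.4 CPM in day 12 macrophages, against 26.2, 29.4 and 28.6 CPM in untreated macrophages. Irak3 rose by 0.64 ± 0.15 (log2, SE), with adjusted p = 0.0236. Its libraries were close within each group, yet the call was lost in all 6 fits that left out 1 library (adjusted p 0.0639 to 0.13). On library size alone neither gene was called. Tnf had 5.79, 12.7 and 19.1 CPM in day 12 macrophages, against 36.7, 26.7 and 33.1 CPM in untreated macrophages, lower in every day 12 library, and did not pass the test. For Tnf the log2 change was -1.36 ± 0.64 (SE), with adjusted p = 0.406. Of 20 tested chemokines 1 fell, Cxcl10, and 0 rose.

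Cxcr1, a receptor for neutrophil-attracting chemokines, was the most lowered gene with at least 20 CPM. It had 47, 32.2 and 30 CPM in day 12 macrophages, against 241, 77.5 and 90.2 CPM in untreated macrophages, and 13.1, 9.68 and 9.0 CPM on day 3. Cxcr1 fell by 1.90 ± 0.37 (log2, SE), with adjusted p = 0.00933. Untreated replicate 1 was more than 2 times as high as the other untreated libraries, and the call was lost without day 12 replicates 2 and 3 or untreated replicate 1 (adjusted p 0.0512 to 0.0811). Relative to day 3 the receptor was higher on day 12 (log2 change 1.78, adjusted p = 0.0023). Tfrc, the transferrin receptor that brings iron into cells, had 7.89, 7.8 and 7.27 CPM in day 12 macrophages, against 29.4, 24 and 22.8 CPM in untreated macrophages. Tfrc fell by 1.73 ± 0.40 (log2, SE), with adjusted p = 0.0288. It had 20.8, 22.4 and 25.9 CPM on day 3, 7.93, 7.17 and 7.67 CPM on day 6 and 7.0, 8.43 and 5.17 CPM on day 9, so that it stood near its untreated level on day 3 and at about a 3-fold lower level from day 6. Its call was lost in all 6 fits that left out 1 library (adjusted p 0.0637 to 0.13). Id3, an inhibitor of basic helix-loop-helix transcription factors, had 2.16, 1.77 and 1.45 CPM in day 12 macrophages, against 8.42, 12.9 and 9.38 CPM in untreated macrophages. Id3 fell by 2.51 ± 0.55 (log2, SE), with adjusted p = 0.0181, a call lost without day 12 replicates 1, 2 and 3 or untreated replicates 2 and 3 (adjusted p 0.05 to 0.107). Its libraries of days 3, 6 and 9 were below all untreated libraries as well.

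Map3k20, Efr3b and Nsd2 were the 3 lowered genes that were called whichever library was left out. Map3k20, a stress kinase that senses stalled ribosomes, had 25.2, 27.5 and 31.3 CPM in day 12 macrophages, against 57.7, 43.9 and 44.9 CPM in untreated macrophages. Map3k20 fell by 0.80 ± 0.14 (log2, SE), with adjusted p = 0.00241. Efr3b, which anchors a lipid kinase at the plasma membrane, had 0.700, 0.589 and 1.06 CPM in day 12 macrophages, against 12.3, 6.59 and 5.47 CPM in untreated macrophages, and 0.853, 0.417 and 1.12 CPM on day 3. Efr3b fell by 3.35 ± 0.57 (log2, SE), with adjusted p = 0.00234. Nsd2, a histone H3 lysine methyltransferase, had 57.7, 55.9 and 54.9 CPM in day 12 macrophages, against 81.1, 84.4 and 76.6 CPM in untreated macrophages, and 114, 107 and 111 CPM on day 3. Nsd2 fell by 0.52 ± 0.09 (log2, SE), with adjusted p = 0.00234. Efr3b was low at every time after LPS, Map3k20 was lowest on day 6, and Nsd2 was above its untreated level on day 3 and below it on days 6, 9 and 12. Nsd2 was the lowered gene that was called under all 16 alternatives. Of the 28 lowered genes, 12 were lower still and 4 were higher in recruited than in resident cells of day 12, with no overlap of the libraries. Of all tested genes, 22% were lower and 18.7% higher in this way.

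Genes of DNA replication and mitosis stood lower on day 12, and 1 of them passed the test, while 0.206% of all tested genes fell. Of 40 tested genes of DNA replication 1 fell and 0 rose, 38 had a negative log2 change, and the median was -0.58, whereas 46.6% of all tested genes had a negative change. At an unadjusted p under 0.05, 24 of the 40 were lower and 0 higher, and 3 fell on library size alone and 4 in DESeq2. Tyms, thymidylate synthase, had 11.7, 10.3 and 9.01 CPM in day 12 macrophages, against 21.5, 18.4 and 14.7 CPM in untreated macrophages. Tyms fell by 0.81 ± 0.19 (log2, SE), with adjusted p = 0.0287, a call lost without day 12 replicates 1, 2 and 3 or untreated replicates 1 and 2 (adjusted p 0.0518 to 0.186). Mcm2, a subunit of the replicative helicase, had 44.3, 54.7 and 44.1 CPM in day 12 macrophages, against 89.5, 65.9 and 54.2 CPM in untreated macrophages, and Pcna, the sliding clamp, had 114, 106 and 111 CPM in day 12 macrophages, against 192, 133 and 144 CPM in untreated macrophages (adjusted p = 0.263 and 0.0814). Summed over the list, the level was 1066, 1122 and 1047 CPM on day 12, against 1843, 1392 and 1386 CPM in untreated cells, and 2315 ± 125 CPM on day 3 (SD, n = 3). All 40 mitosis genes had a negative change, with a median of -0.68, but 0 passed the test in edgeR (0 higher and 7 lower at an unadjusted p under 0.05, 1 lowered in DESeq2). Mki67, the proliferation marker Ki-67, had 169, 143 and 131 CPM in day 12 macrophages, against 283, 233 and 219 CPM in untreated macrophages, beside 533, 502 and 538 CPM on day 3 and 47.2, 154 and 62 CPM on day 9. For Mki67 the log2 change was -0.73 ± 0.39 (SE), with adjusted p = 0.51. The day 12 libraries were below the untreated ones in Tyms, Pcna and Mki67, and overlapped them in Mcm2.

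Further lowered genes were Gstm1, Gss and Abcb6. Gstm1, a glutathione transferase, had 263, 320.3 and 325 CPM in day 12 macrophages, against 777, 395 and 445 CPM in untreated macrophages. Gstm1 fell by 0.83 ± 0.21 (log2, SE), with adjusted p = 0.0454, a call lost without day 12 replicates 1, 2 and 3 or untreated replicates 1 and 3 (adjusted p 0.05 to 0.383). Gss, glutathione synthetase, had 11.8, 13.7 and 13 CPM in day 12 macrophages, against 41.3, 20.3 and 16.4 CPM in untreated macrophages. Gss fell by 1.02 ± 0.24 (log2, SE), with adjusted p = 0.0343, a call lost without day 12 replicates 1, 2 and 3 or untreated replicate 1 (adjusted p 0.083 to 0.372). Abcb6, a mitochondrial porphyrin transporter, had 14.1, 20.2 and 17.2 CPM in day 12 macrophages, against 50.9, 23.7 and 25.9 CPM in untreated macrophages. Abcb6 fell by 0.97 ± 0.24 (log2, SE), with adjusted p = 0.0391, a call lost without day 12 replicates 1, 2 and 3 or untreated replicate 1 (adjusted p 0.0517 to 0.382). In these genes untreated replicate 1 was far above the other untreated libraries, which were themselves above all day 12 libraries. Of 29 tested redox genes 1 rose and 1 fell (5 fell on library size alone), beside 1.1% and 0.206% of all tested genes. The median log2 change of the list was -0.31. At an unadjusted p under 0.05, 13 were lower and 1 higher, beside 641 lower and 968 higher of all 13599 tested genes. Without day 12 replicate 1, or without untreated replicate 1, 0 genes of the list were called lowered. Hmox1, the haem oxygenase, had 359, 576 and 503 CPM in day 12 macrophages, against 2114, 735 and 721 CPM in untreated macrophages. For Hmox1 the log2 change was -1.31 ± 0.50 (SE), with adjusted p = 0.26. Slc7a11, the cystine importer, had 107, 106 and 76.4 CPM in day 12 macrophages, against 479, 164 and 139 CPM in untreated macrophages. For Slc7a11 the log2 change was -1.44 ± 0.39 (SE), with adjusted p = 0.0824. Without untreated replicate 1 the log2 change was -0.60 for Hmox1, -0.65 for Slc7a11 and -0.47 for Gstm1. Ncf1, the p47phox subunit of the phagocyte NADPH oxidase, was the raised gene of the list, with 741, 622 and 672 CPM in day 12 macrophages, against 455, 455 and 453 CPM in untreated macrophages. Ncf1 rose by 0.58 ± 0.12 (log2, SE), with adjusted p = 0.00918, a call lost without day 12 replicate 1 (adjusted p = 0.12).

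Hspa8, the constitutive chaperone Hsc70, had 743, 640.3 and 790.2 CPM in day 12 macrophages, against 989, 1216 and 1272 CPM in untreated macrophages. Hspa8 fell by 0.68 ± 0.17 (log2, SE), with adjusted p = 0.0415, a call lost without day 12 replicates 1, 2 and 3 or untreated replicates 2 and 3 (adjusted p 0.0828 to 0.171). It was the 1 gene called among 24 tested genes of heat shock and protein folding, of which 23 had a negative change (median -0.32). Over all tested genes 1.1% rose and 0.206% fell, the shares to set beside this list and those that follow. Of 19 chromatin genes 2 fell, the linker histone H1f0 and Suv39h1, beside 0.206% of all tested genes. H1f0 had 19.8, 22.7 and 21.6 CPM in day 12 macrophages, against 26.3, 35.2 and 42.3 CPM in untreated macrophages. H1f0 fell by 0.69 ± 0.17 (log2, SE), with adjusted p = 0.037, a call lost without day 12 replicates 1, 2 and 3 or untreated replicates 2 and 3 (adjusted p 0.0753 to 0.229). Suv39h1, a histone H3 methyltransferase of silent chromatin, had 14.6, 16.1 and 16.6 CPM in day 12 macrophages, against 28, 20.4 and 24.2 CPM in untreated macrophages. Suv39h1 fell by 0.62 ± 0.13 (log2, SE), with adjusted p = 0.0167, a call lost without day 12 replicates 1 and 2 or untreated replicates 1 and 3 (adjusted p 0.0507 to 0.137). In both, the day 12 libraries were close together and below all untreated libraries. Ndufa4, a subunit of cytochrome oxidase, had 43.3, 33.8 and 34.4 CPM in day 12 macrophages, against 95.8, 62.7 and 72.7 CPM in untreated macrophages. Ndufa4 fell by 1.05 ± 0.21 (log2, SE), with adjusted p = 0.0089, a call lost without day 12 replicate 3 or untreated replicate 1 (adjusted p 0.0567 to 0.0723). It was the 1 gene called among 41 of the citrate cycle and respiratory chain, whose median log2 change was 0.05. Acot1, a cytosolic acyl-CoA thioesterase, fell and Angptl4 rose among 28 genes of fatty acid oxidation (median 0.11). Acot1 fell by 0.98 ± 0.25 (log2, SE), with adjusted p = 0.0476, a call lost in all 6 fits that left out 1 library (adjusted p 0.0852 to 0.245). Ppp1r9a, the actin-binding neurabin, had 11.8, 20.3 and 17 CPM in day 12 macrophages, against 32.8, 37.9 and 36.9 CPM in untreated macrophages. Ppp1r9a fell by 1.14 ± 0.28 (log2, SE), with adjusted p = 0.0451, a call lost in all 6 fits that left out 1 library (adjusted p 0.0512 to 0.239). Atad2, a chromatin ATPase, had 74, 74.1 and 65.1 CPM in day 12 macrophages, against 137, 101 and 100.2 CPM in untreated macrophages. Atad2 fell by 0.67 ± 0.16 (log2, SE), with adjusted p = 0.0374, a call lost in all 6 fits that left out 1 library (adjusted p 0.0517 to 0.272). In both of these genes every day 12 library was below every untreated library.

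Several pathways held no called gene or 1. Over all tested genes 1.1% rose and 0.206% fell, shares at which lists of this size hold few called genes or none. Of 24 genes of cholesterol synthesis 0 rose and 0 fell in edgeR or DESeq2, and 0 had an unadjusted p under 0.05 in either direction, with a median log2 change of -0.15. In the lysosome list 0 of 34 genes were called in edgeR or DESeq2 (3 higher and 0 lower at an unadjusted p under 0.05), and the median was 0.14. Hk1, hexokinase 1 of glycolysis, had 51.1, 40.2 and 42.7 CPM in day 12 macrophages, against 23.9, 20.5 and 28.3 CPM in untreated macrophages. Hk1 rose by 0.88 ± 0.20 (log2, SE), with adjusted p = 0.0217, a call lost without day 12 replicates 1 and 3 or untreated replicates 1 and 2 (adjusted p 0.0559 to 0.185). It was the 1 gene called of 30 in glycolysis and the pentose phosphate route (median 0.20). Among 28 scavenger and phagocytosis receptors 0 were called in edgeR and 2 were raised in DESeq2 (7 higher and 1 lower at an unadjusted p under 0.05), with a median of 0.33. Of 28 lipid uptake, storage and efflux genes 0 were called in edgeR and 1 was raised in DESeq2 (5 higher and 1 lower at an unadjusted p under 0.05), with a median of 0.15.

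**Figure D5:**
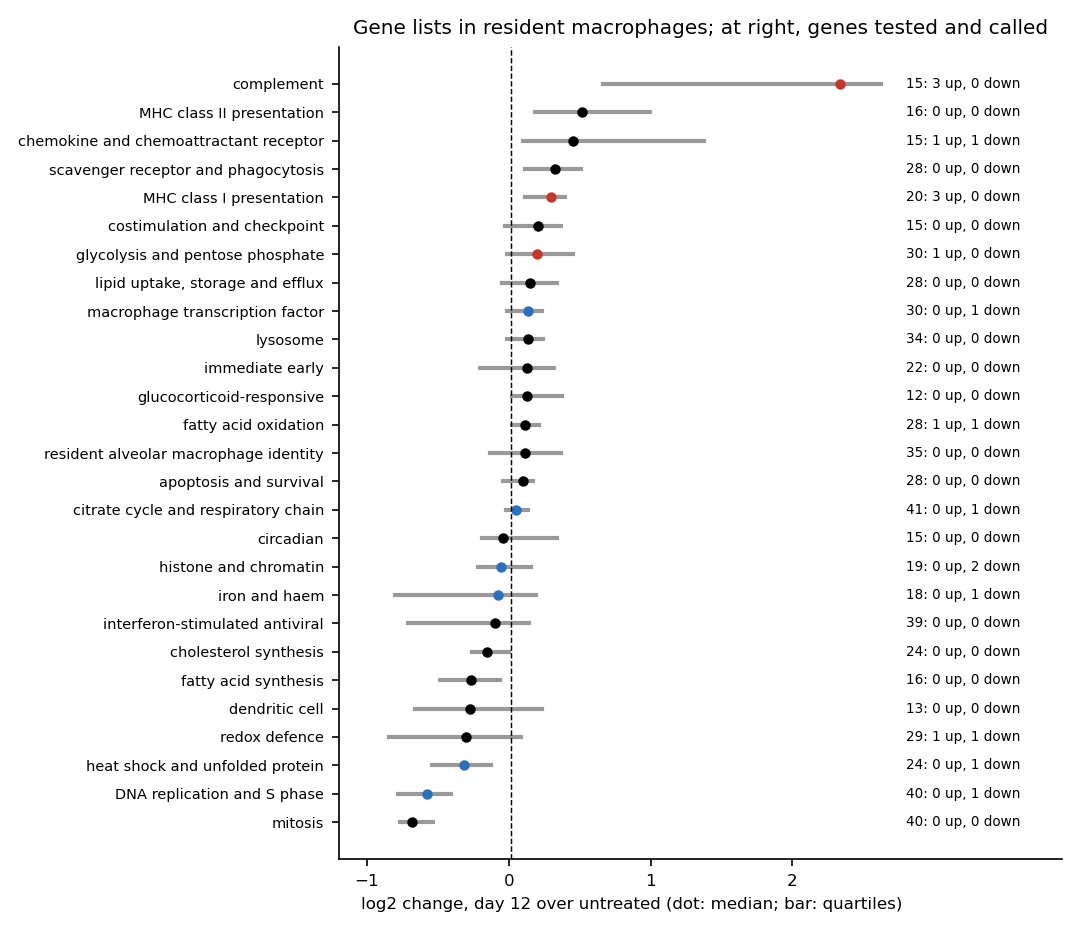
Median (dot) and quartiles (bar) of the log2 change, day 12 over untreated, in each list with at least 10 tested genes that all had a count in untreated cells; the dashed line is the median of all tested genes (0.02), red dots mark lists with more raised than lowered calls, blue dots the reverse, and the text gives the genes tested and called. Complement has the highest median and the widest spread, and mitosis and DNA replication the lowest medians with at most 1 called gene each. The complement median, 2.34, equals the log2 change of C1qa, a gene of few CPM that did not pass the test. Without day 12 replicate 1 the log2 change of C1qa was -0.34, so the rank of complement leans on that library.

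Markers of cells other than macrophages were summed in each library. Over 18 markers of T and NK cells, the level was 5.98, 5.96 and 5.99 CPM on day 12, against 1.54, 0.613 and 0.881 CPM in untreated cells. All 15 tested members were higher in mean on day 12, 0 passed the test in edgeR and 1 was raised in DESeq2, and 5 had an unadjusted p under 0.05. Of the 18, 2 were at 0 in all day 12 libraries and 6 in all untreated libraries. The 16 neutrophil markers summed to 239, 196 and 226 CPM on day 12, against 148, 189.9 and 211 CPM in untreated cells, with 8 of them, S100a9 included, at 0 in all day 12 libraries and 5 in all untreated libraries. The 17 markers of lung epithelium summed to 100.3, 118 and 125 CPM on day 12, against 124, 210.1 and 209 CPM in untreated cells, and Hopx, a homeodomain protein gene of that list, was its 1 raised member of 11, with 7.89, 7.43 and 10.7 CPM in day 12 macrophages, against 2.76, 2.53 and 1.82 CPM in untreated macrophages. Hopx rose by 1.87 ± 0.31 (log2, SE), with adjusted p = 0.00234, and 1.1% of all tested genes rose. The 14 markers of endothelium and stroma summed to 238, 208 and 182 CPM on day 12, against 457, 275 and 244 CPM in untreated cells, with 2 at 0 in all day 12 libraries and 7 in all untreated libraries. Their sums did not overlap, untreated replicate 1 was the highest, and of the 7 tested members 0 passed the test (0 higher and 1 lower at an unadjusted p under 0.05, and 0 in DESeq2). The classical monocyte list, most of it Fn1, summed to 11250, 5464 and 6122 CPM on day 12, against 1930.1, 2790.5 and 2216 CPM in untreated cells, with 1 of its 19 genes at 0 in all day 12 libraries and 1 in all untreated libraries. The part of these cells in the called genes was not tested. Ddx3y, a gene of the Y chromosome, had 69.4, 79.5 and 63.4 CPM in day 12 macrophages, against 56.5, 70 and 79.6 CPM in untreated macrophages, and Xist was listed at 0 in the 6 libraries.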

How the data were processed

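Sorted lavage cells gave polyadenylated RNA, sequenced on an Ion Proton after a modified stranded mRNA preparation, per the labels. Tools in the submitters' processing notes, given without roles, are STAR (2.4.0a), HTSeq (0.6.0), DESeq2 (1.4.5) and R (3.1.0), with the build mm10; annotation release and strand option were not given. The authors deposited a table of raw counts, 1 column per library and 38124 Ensembl genes, without normalization, and a table of unassigned reads, used here as shares only. Symbols and positions came from GENCODE M21 (36345 IDs matched), promoters from RefSeq.

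The counts of all 27 libraries were fitted with edgeR 4.0.16 (R 4.3.3, limma 3.58.1), with 1 mean per group and 18 residual degrees of freedom: filterByExpr (minimum count 10, minimum total 15), TMM, robust quasi-likelihood F tests, two-sided, Benjamini-Hochberg adjustment over 13599 genes, threshold 0.05. The standard error is the log2 change divided by the root of F. CPM are scaled by TMM factors. An exact permutation test of 3 libraries in each group has 0.1 as its smallest p. Resident day 12 was set against resident day 0 and day 3. The floor for a gene without counts is 3 counts over the group, and intervals of ratios are exact binomial ones that cover counting error only. The counting may have split reads of overlapping or near-identical genes.

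Genes named are the called members of each list with the largest changes (up to 4), the 12 most changed in either direction with at least 20 CPM, a fixed set, and genes singled out after their values were seen, which include those with the smallest p. Some genes that these rules name are not reported here. The members and lists were chosen with earlier results of these data known. Alternatives were other scalings (library size, DESeq2 1.42.0), filters, sets of libraries, a replicate block, runs of library numbers and leaving out libraries.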

Additional observations from a re-analysis of the deposited data

How the results depend on the processing

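The count of called genes for resident day 12 versus untreated, 177 in all (149 raised and 28 lowered), stayed within 1.5 times for all calls on library size alone, under both other filters, with the replicate block, in the 15 resident libraries, in the 6 compared libraries and without the libraries numbered 12 to 18. Lowered calls were 69 on library size alone, 69 in the 15 resident libraries and 72 in the 6 compared libraries. The genes called changed more than their count. In the 6 compared libraries 141 genes rose, 90 of them among the 149, and 14 of the 72 lowered genes were among the 28. In the 15 resident libraries 177 genes rose, 112 of them among the 149, and 23 of the 69 lowered genes were among the 28. With the number run as covariate 379 genes were called, 251 raised and 128 lowered, and DESeq2 called 384, 284 raised and 100 lowered, among them all 149 raised and 27 of the 28 lowered genes. Leaving out 1 library gave 75 to 144 calls, 67 to 134 raised and 5 to 23 lowered, and leaving out both replicate 1 libraries, an alternative chosen after seeing the data, gave 51, of which 50 were raised and 1 lowered. For resident day 12 versus resident day 3, leaving out 1 library gave 1874 to 2726 calls, 748 to 1206 raised and 1126 to 1520 lowered, the lowest without day 3 replicate 3. The replicate block gave 157 raised and 24 lowered genes for day 12 versus untreated. Same-numbered day 12 and untreated libraries deviated from their group means with correlations of 0.18, 0.05 and 0.13, all positive. Correlations of unlike-numbered libraries ran from -0.19 to 0.11. The fit reported did not pair the libraries, and whether the numbers pair them was not tested.

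The log2 changes that turned sign all belong to genes that did not pass the test. C1qa was -0.34 without day 12 replicate 1 and -0.34 without the libraries numbered 12 to 18. With both replicate 1 libraries left out, Car4 was -0.16, Ly6c2 -0.10, Ddx3y -0.067 and Pparg -0.061. On library size alone Ddx3y was -0.052 and Pparg -0.054. When 1 library was left out, Ddx3y ranged from -0.081 to 0.163, Pparg from -0.117 to 0.162 and C1qa from -0.34 to 3.98. Of the tests of named genes called in the fit reported, 1049 of the alternatives kept the call and 316 lost it with the same direction. The cause was not tested. Rare transcripts are limited by depth: below about 1 CPM a library holds some 10 to 20 counts or fewer.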
